A study of Mus musculus with 10 samples.

Results

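Genes that mark lipid-associated and monocyte-derived macrophages were followed in whole mouse liver after hepatocytes lost the histone variant H3.3. The 10 genes were Trem2, Gpnmb, Cd9, Lpl, Itgax, Mmp12, Ly6c2, Cd63, Fabp5 and Lgals3. Each was found by its gene name at exactly 1 of the 55421 identifiers of the deposited count table, and all 10 passed the filter of at least 10 counts summed over the livers, which 22449 genes passed. All 10 livers were from male C57BL/6 mice that were injected with an AAV8 vector at 6 months of age and sampled 3 weeks later. The 4 H3.3 KO livers came from H3f3a fl/fl H3f3b fl/fl mice given AAV8-Tbg-Cre. The 3 WT Cre controls were wildtype mice given the same vector, and the 3 floxed MCS controls were H3f3a fl/fl H3f3b fl/fl mice given AAV8-Tbg-MCS, which carries no Cre. Tbg is a hepatocyte promoter, so the deletion is directed at hepatocytes and macrophages keep both H3.3 genes by design.

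Macrophages of the liver come from a resident population, the Kupffer cells, and from monocytes of the blood that enter injured tissue and mature there. Monocytes are drawn out of the blood through the chemokine receptor CCR2 and carry Ly6C, which they lose as they mature. Lipid-associated macrophages are a state defined in obese fat tissue and fatty liver. Their surface receptor TREM2 binds lipids and lipoproteins and signals through the adaptor TYROBP (DAP12) and the kinase SYK, and their other marker genes encode lysosomal, lipid-handling and matrix-degrading proteins.

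Of the 10 genes, 9 were higher in H3.3 KO livers than in the 6 controls at an adjusted p under 0.05 (edgeR quasi-likelihood test), and the other one, Fabp5, was lower. Over all 22449 genes tested, 19.7% were higher and 16.6% were lower by the same rule. With library size only in place of TMM scaling, 72.2% of all called genes were higher in place of 54.3%, and the median of all genes moved from 0.00 to 0.17, but the calls of the 10 genes were unchanged. On log2(FPKM + 1), 69.7% of the called genes were higher. The 9 raised genes also passed the threshold of the study, a log2 fold change above 1, which 12.9% of all genes passed. Their log2 fold changes ran from 1.31 for Cd9 to 5.32 for Mmp12. Mmp12 rose about 39.9-fold, Gpnmb 22.9-fold and Itgax 8.61-fold. The median over the 10 genes was 2.47, beside 0.00 over all genes tested. In whole liver, more macrophages, more RNA of these genes per macrophage, and RNA from other cells, hepatocytes included, cannot be told apart.

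In 8 of the 10 genes the 4 H3.3 KO livers all lay above the 6 controls, as in 12.5% of all genes tested. The exceptions were Ly6c2 and Fabp5. H3.3 KO 1 was the lowest of the H3.3 KO livers in 8 of the 9 raised genes, and H3.3 KO 4 was the highest in 5. H3.3 KO 1 was also the library of lowest depth, with 14998426 counts against 20862860 to 26096141 in the others. Without it, 9 genes were still higher and 1 lower. The plot of CPM (read counts relative to library size, scaled by TMM so that livers are comparable) shows each gene by liver.

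**Figure D1:**
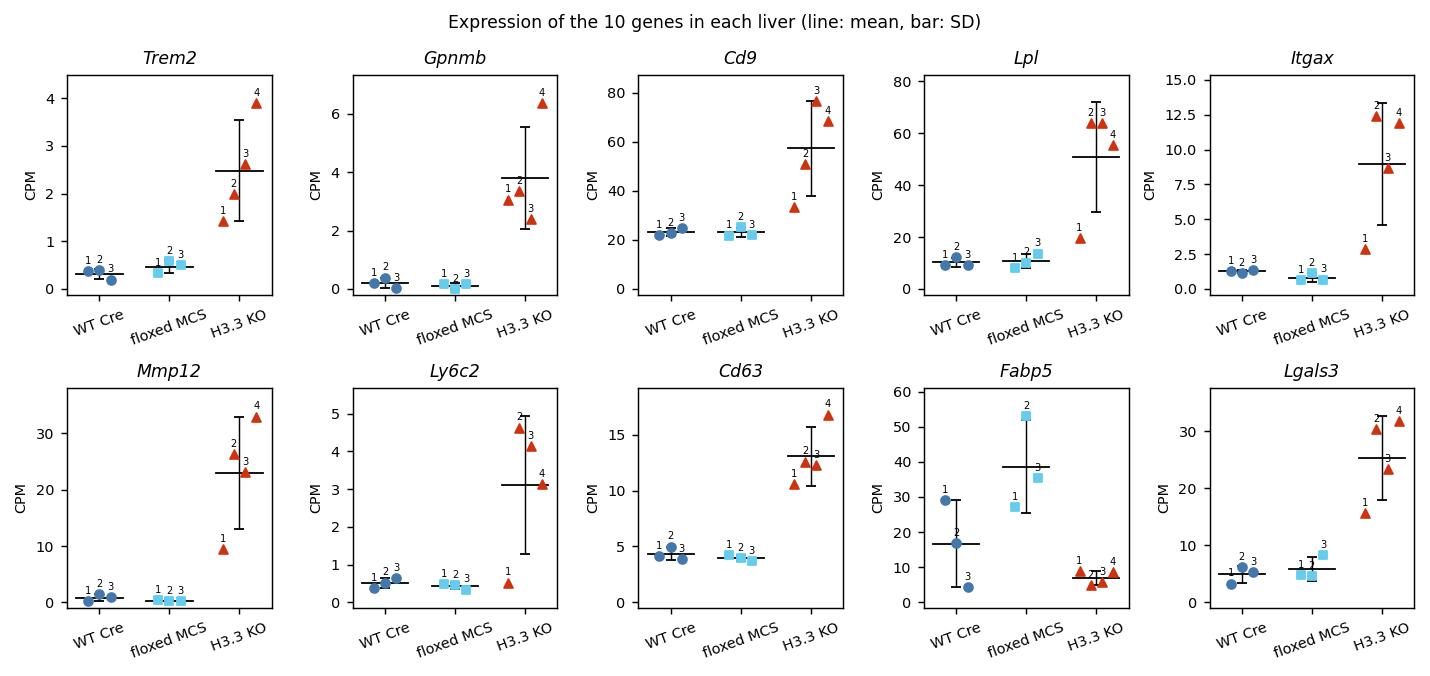
CPM of the 10 genes in each liver, 1 panel per gene with its own linear axis, for 3 WT Cre controls (circles), 3 floxed MCS controls (squares) and 4 H3.3 KO livers (triangles). The digit beside a point is the replicate number, lines are means and bars are SD. The H3.3 KO livers lie above all controls in 8 panels, H3.3 KO 1 lies among the controls for Ly6c2, and Fabp5 is the gene whose H3.3 KO livers lie low.

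Promoter sequences are shown for 5 of the genes that rose together, the 4 in which a searched motif lay before the start site and Gpnmb, in which it lay after it. RefSeq windows of 300 bases (250 before to 50 after the start site, build GRCm38.p6) were found for 8 of the 10 genes, of which Mmp12 and Ly6c2 have 2 windows each. Lpl and Fabp5 had no window. The sequences below are the bases before the start site that lie outside the GENCODE gene, 5′ to 3′ on the strand of the gene. Capitals mark TGANTCA (the letters of an AP-1 site, where N is any base), GAGGAAGT (PU.1) and TTGCNNAA (C/EBP), in either orientation. Trem2 lies at chr17:48346251-48346400 (plus strand), Gpnmb at chr6:49036368-49036517 (plus), Itgax at chr7:128129400-128129546 (plus), the first Mmp12 window at chr9:7344247-7344380 (plus) and the second Ly6c2 window at chr15:75111972-75112121 (minus).
Trem2: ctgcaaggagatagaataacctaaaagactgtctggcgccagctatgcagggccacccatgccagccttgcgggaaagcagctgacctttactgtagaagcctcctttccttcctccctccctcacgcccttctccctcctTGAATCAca
Gpnmb: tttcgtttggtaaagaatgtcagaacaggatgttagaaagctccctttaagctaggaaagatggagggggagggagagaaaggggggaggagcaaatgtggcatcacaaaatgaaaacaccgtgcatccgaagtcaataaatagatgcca
Itgax: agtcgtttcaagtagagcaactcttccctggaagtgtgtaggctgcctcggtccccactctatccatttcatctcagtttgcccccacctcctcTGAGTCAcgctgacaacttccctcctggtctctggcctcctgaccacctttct
Mmp12: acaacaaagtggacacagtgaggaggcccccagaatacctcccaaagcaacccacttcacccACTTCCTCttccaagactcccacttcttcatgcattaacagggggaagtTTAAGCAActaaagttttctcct
Ly6c2: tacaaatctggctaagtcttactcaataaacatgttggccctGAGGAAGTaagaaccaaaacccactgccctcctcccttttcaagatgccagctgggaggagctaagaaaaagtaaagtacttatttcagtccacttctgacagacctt

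Within the whole windows, TGANTCA was present in 4 of the 10 windows of these genes and in 7.81% of all 32851 windows of this length. In Trem2 it began 9 bases before the start site and in Itgax 56 bases before it, whereas in Gpnmb it began 8 bases after it. In Mmp12 it lay in the other window, not the one printed, 44 bases before that start site. GAGGAAGT, on either strand, was found in 3 of the 10 windows, in the first of Mmp12 and both of Ly6c2, and in 3.2% of all windows. TTGCNNAA was found in 2 of the 10, in Trem2 and the first window of Mmp12 (10.8% of all windows), and TATAAA in 1, the other window of Mmp12 (13.6%). CACGTG, the E-box letters recognised by the MITF and TFEB family, and TCACGTGA, which contains it, occurred in 0 of the 10 windows, beside 7.15% and 0.974% of all windows. The 2 windows of Ly6c2 overlap and hold the same matches. These are matches of letters only.

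Trem2 and Gpnmb are the surface receptor and a lysosomal membrane glycoprotein of lipid-associated macrophages. Trem2 (chr17:48346401-48354147, build mm10) read 0.375, 0.39 and 0.198 CPM in WT Cre 1 to 3 and 0.326, 0.58 and 0.503 CPM in floxed MCS 1 to 3. The 4 H3.3 KO livers read 1.43, 1.98, 2.61 and 3.9 CPM. All 4 lay above every control, in a stepwise spread and not as a tight group. The means were 2.48 ± 1.06 CPM (SD, n = 4) and 0.396 ± 0.134 CPM (n = 6), with a log2 fold change of 2.67 (adjusted p = 4.99e-05 by edgeR, SE 0.318). Counts were low, at 5 to 13 per control library and 22 to 102 per H3.3 KO library.

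Gpnmb (chr6:49036546-49070929) was close to the detection limit in the controls, with 5, 9 and 1 counts in WT Cre 1 to 3 and 4, 0 and 3 counts in floxed MCS 1 to 3. H3.3 KO 1 to 4 had 47, 85, 57 and 166 counts. In CPM these were 3.06, 3.36, 2.4 and 6.35, beside at most 0.39 in a control. H3.3 KO 4 stood highest, and this was the raised gene in which H3.3 KO 1 was not the lowest. The log2 fold change was 4.52 (adjusted p = 3.35e-05 by edgeR, SE 0.49).

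Cd9 and Cd63 are tetraspanins, membrane proteins of exosomes and lysosomes that many cell types make. Cd9 (chr6:125460266-125494791) read 21.9, 22.9 and 24.8 CPM in WT Cre 1 to 3 and 21.8, 25.2 and 22.1 CPM in floxed MCS 1 to 3. H3.3 KO 1 to 4 read 33.4, 50.9, 76.7 and 68.5 CPM. The controls agreed closely, while the H3.3 KO livers spread over more than the distance between H3.3 KO 1 and the controls. The log2 fold change of 1.31 (adjusted p = 1.49e-04 by edgeR, SE 0.178) was the smallest of the raised genes. For Cd63 (chr10:128900989-128912822), controls read 3.69 to 4.99 CPM (median 4.05) and H3.3 KO 1 to 4 read 10.6, 12.6, 12.3 and 16.8 CPM. Its groups were far apart for their spread, and the log2 fold change of 1.65 had the smallest SE (0.142) and the smallest adjusted p (4.43e-06) of the 10 genes. Of the 50-base stretches in their transcripts, 14.4% in Cd9 and 11.1% in Cd63 also occur in other genes, for Cd63 mostly in the pseudogene Cd63-ps, so their counts are less certain. Cd9 also overlaps 2 genes on the other strand, and the strand setting of the counting was not given in the sources used here.

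Across the 10 further tetraspanins listed, 6 were higher and 1 lower, with a median log2 fold change of 0.81. Without H3.3 KO 1, 6 were higher and 0 lower by edgeR. Of the most abundant of them, Cd151 rose by 0.47 (adjusted p = 0.00671) and Tspan4 by 0.81 (0.0292), whereas Cd81 (-0.07, adjusted p = 0.661) and Cd82 (0.25, 0.106) did not pass the threshold (edgeR).

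Lpl and Fabp5 handle fatty acids outside and inside the cell. Lipoprotein lipase, the product of Lpl, releases fatty acids from circulating triglyceride, and FABP5 carries fatty acids in the cytoplasm. Lpl (chr8:68880491-68907448) read 9.17, 12.2 and 9.33 CPM in WT Cre 1 to 3 and 8.18, 10.2 and 13.6 CPM in floxed MCS 1 to 3. Levels in H3.3 KO 1 to 4 were 19.5, 64, 63.9 and 55.5 CPM. H3.3 KO 2 to 4 were close to each other and H3.3 KO 1 lay between them and the controls. Lpl rose by a log2 fold change of 2.28 (adjusted p = 2.19e-04 by edgeR, SE 0.291).

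Fabp5 (chr3:10012548-10016607) went the other way. WT Cre 1 to 3 read 29, 16.8 and 4.37 CPM and floxed MCS 1 to 3 read 27.2, 53.1 and 35.4 CPM. H3.3 KO 1 to 4 read 8.8, 4.82, 5.69 and 8.61 CPM. The H3.3 KO livers were tightly grouped and lay below 5 of the 6 controls, but WT Cre 3 was lower than all 4 of them. Means were 6.98 ± 2.02 CPM (SD, n = 4) and 27.6 ± 16.5 CPM (n = 6). The log2 fold change was -1.99 (adjusted p = 0.0279 by edgeR, SE 0.593, exact permutation p = 0.0381). Against floxed MCS controls alone it was -2.47 (edgeR adjusted p = 0.0105) and against WT Cre controls -1.27, which did not pass the threshold (0.126). Without WT Cre 3 the difference from the pooled controls was -2.20 (adjusted p = 0.00103) and that from WT Cre -1.71 (0.00825). The call against pooled controls was lost without H3.3 KO 2 (adjusted p = 0.075), without H3.3 KO 3 (0.0725) and without H3.3 KO 4 (0.0598), and in 8 of the 21 alternatives in all.

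Of 10 partners and regulators of lipoprotein lipase, 0 were higher and 3 lower against all controls (edgeR). Lmf1, the maturation factor of the lipase in the endoplasmic reticulum, fell by 0.65 (adjusted p = 0.0033), Apoa5, an activator of lipolysis, by 0.41 (0.0353), and the transcription factor Pparg by 2.21 (0.0154). Pparg, however, read 15.9 to 18.3 CPM in WT Cre livers, 4.86 to 7.29 CPM in floxed MCS livers and 1.38 to 6.06 CPM in H3.3 KO livers, and its fall passed the threshold against WT Cre (-2.76, edgeR adjusted p = 0.00204) and not against floxed MCS (-1.33, 0.0521). Gpihbp1, which anchors the lipase on capillary endothelium, had a log2 fold change of -0.12 (adjusted p = 0.45). Angptl4, a secreted inhibitor, had 0.26 (0.633) and Vldlr -0.41 (0.543). Without H3.3 KO 1, 5 of the 10 were lower and 0 higher. At an unadjusted p under 0.05 against all controls, 0 of the 10 were higher by edgeR, and DESeq2 called 1 higher, Angptl8. Taken against WT Cre alone, edgeR called 1 higher, Angptl4 (0.93, adjusted p = 0.043). Against floxed MCS alone it called 1 higher, Angptl8 (1.72, 0.0267). The fall of Apoa5 passed against floxed MCS (-0.49, edgeR adjusted p = 0.0283) and not against WT Cre (-0.32, 0.138).

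Among other fatty acid-binding proteins, 4 of 6 were tested. Fabp1, the abundant liver form, fell by 2.44 (edgeR adjusted p = 4.00e-04), from 3702 to 5444 CPM in controls to 356 to 1566 CPM in H3.3 KO livers. Fabp4 rose by 0.64 (0.0263) and Fabp7 by 1.49 (0.00104), and Fabp2 had -0.82 (0.13). Without H3.3 KO 1, 1 of the 4 was higher and 2 were lower. Of 18 further markers of lipid-associated macrophages, 14 were higher and 0 lower, with a median of 1.41. Among the 4 most abundant, Anxa5 rose by 0.54 (adjusted p = 0.0393) and Cstb by 0.73 (0.0024), whereas the lipid droplet coat gene Plin2 (0.14, 0.766) and the scavenger receptor Cd36 (-0.61, 0.296) did not pass. Cd36 read 114 to 167 CPM in WT Cre, 45.6 to 81.4 CPM in floxed MCS and 40.6 to 119 CPM in H3.3 KO livers. Of 20 genes of the lysosome and cholesterol handling, 10 were higher and 1 lower, with a median of 0.31. Ctsb, a cathepsin, rose by 0.92 (3.52e-05) and Lamp1, a lysosomal membrane protein, fell by 0.43 (0.00552), while Lamp2 (0.13, 0.34) and Psap (0.29, 0.0546) did not pass. With library size only, 13 of the 20 were higher and 0 lower, and Lamp1 was then not called.

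Itgax and Ly6c2 are surface markers of myeloid cells. Itgax encodes the integrin CD11c of dendritic cells and activated macrophages, and Ly6c2 encodes the Ly6C antigen of inflammatory monocytes. Itgax (chr7:128129547-128150657) read 1.29, 1.13 and 1.35 CPM in WT Cre 1 to 3 and 0.611, 1.16 and 0.671 CPM in floxed MCS 1 to 3. Levels in H3.3 KO 1 to 4 were 2.87, 12.4, 8.68 and 11.9 CPM. H3.3 KO 1 was much nearer to the controls than to the other H3.3 KO livers. The log2 fold change was 3.11 (adjusted p = 7.25e-05 by edgeR, SE 0.364). Of its 50-base stretches, 8.02% are shared with the paralog Itgad.

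Ly6c2 (chr15:75108158-75111970) read 0.375, 0.52 and 0.635 CPM in WT Cre 1 to 3 and 0.488, 0.446 and 0.335 CPM in floxed MCS 1 to 3. H3.3 KO 1 to 4 read 0.521, 4.63, 4.13 and 3.14 CPM. H3.3 KO 1, with 8 counts, lay inside the control range, while the other 3 had 82 to 117 counts and lay far above it. Ly6c2 rose by a log2 fold change of 2.73 (adjusted p = 4.51e-04 by edgeR, SE 0.433, exact permutation p = 0.00952) and 3.06 without H3.3 KO 1. The paralog Ly6c1, an endothelial marker that holds 13.9% of the 50-base stretches of Ly6c2, had a log2 fold change of 0.62 (adjusted p = 0.312). Of the 9 further Ly6 genes listed, 5 were tested and 2 were higher. Ly6a was higher by 1.20 (0.00297), Ly6e had 0.30 (0.111) and Ly6d 0.47 (0.674). The other one that rose was Ly6i, also counted with the monocyte markers.

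Monocyte markers rose broadly. Of 16, 15 were higher and 1 lower, with a median log2 fold change of 2.36, or 2.31 with Ly6i set to the bound that a floor of 3 counts per control library gives. Ccr2, the chemokine receptor of inflammatory monocytes, read 0.936 to 1.87 CPM in controls and 4.37, 12.4, 7.67 and 9.52 CPM in H3.3 KO 1 to 4. Its log2 fold change was 2.66 (edgeR adjusted p = 1.27e-05). Cx3cr1, the fractalkine receptor, rose from at most 1.34 CPM in a control to 3.32, 4.55, 4.26 and 3.14 CPM, by 2.27 (5.88e-05). For Chil3, a chitinase-like protein, H3.3 KO 1 was again inside the control range, with 0.195 CPM beside 0.0407 to 0.391 CPM. The other 3 H3.3 KO livers read 2.89, 2.4 and 1.15 CPM, for a log2 fold change of 3.40 (adjusted p = 0.00166). Vcan rose by 2.84, F13a1 by 2.96, S100a4 by 2.66 and Itgam by 2.63, with edgeR adjusted p of 9.82e-04 or less for each. Their control counts were low, at 2 to 6 for Vcan, 1 to 9 for F13a1, 3 to 11 for S100a4 and 3 to 12 for Itgam. For Itgam, H3.3 KO 1 (0.456 CPM) lay inside the control range of 0.125 to 0.671 CPM. For Spn it read 1.11 CPM, below the highest control (1.26 CPM). Msrb1, a methionine sulfoxide reductase that was far more abundant than the other 15, read 271 to 356 CPM in controls and 144 to 259 CPM in H3.3 KO livers, and fell by 0.77 (0.00205).

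Genes that recruit or sustain monocytes were higher too, 8 of the 9 that could be tested out of 10, with a median of 2.40 (2.28 with 2 genes at their floor bound). The chemokine gene Ccl2 read 0.204 to 1.69 CPM in 5 controls, 3.69 CPM in floxed MCS 3 and 3.13, 8.94, 8.68 and 4.36 CPM in H3.3 KO 1 to 4. The log2 fold change was 2.40 (edgeR adjusted p = 0.0184), although H3.3 KO 1 lay below floxed MCS 3. Ccl2 did not pass against WT Cre alone (2.59, edgeR adjusted p = 0.0575) or floxed MCS alone (2.23, 0.083). Of the 9 genes tested, 7 were higher against each kind of control. Csf1, the growth factor of macrophages, read 7.21 to 14.3 CPM in controls and 17.9, 39.7, 37.9 and 29.9 CPM in H3.3 KO livers, which was 1.61 higher (2.85e-04). Il34, the other ligand of the same receptor, had 0.75 (0.0731).

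Mmp12 and Lgals3 encode secreted proteins. MMP12 is the elastase of macrophages and galectin-3 is a sugar-binding protein of phagocytes. Mmp12 (chr9:7344381-7369499) read 0.208, 1.43 and 0.873 CPM in WT Cre 1 to 3 and 0.366, 0.223 and 0.279 CPM in floxed MCS 1 to 3. Levels in H3.3 KO 1 to 4 were 9.51, 26.3, 23.1 and 33 CPM. Even H3.3 KO 1 was several times above the highest control, WT Cre 2. Control counts were low, at 5, 33 and 22 in WT Cre 1 to 3 and 9, 5 and 5 in floxed MCS 1 to 3, beside 146 to 862 in H3.3 KO livers. The log2 fold change of 5.32 (adjusted p = 6.14e-05 by edgeR, SE 0.524) was the largest of the 10. The gene overlaps Mmp1b on the other strand, which holds 1.49% of its 50-base stretches.

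Lgals3 (chr14:47367751-47386160) read 3.29, 6.16 and 5.24 CPM in WT Cre 1 to 3 and 4.72, 4.64 and 8.27 CPM in floxed MCS 1 to 3. H3.3 KO 1 to 4 read 15.6, 30.4, 23.4 and 31.8 CPM. The groups did not overlap and floxed MCS 3 was the highest control. Lgals3 rose by a log2 fold change of 2.24 (adjusted p = 4.62e-05 by edgeR, SE 0.244). Of 6 other galectins listed, 4 were tested and 0 passed the threshold by edgeR. Lgals9 had a log2 fold change of -0.11 (adjusted p = 0.534), Lgals8 0.10 (0.548), Lgals1 0.18 (0.764) and Lgals4 -0.12 (0.643). Lgals1, however, read 36.6 to 45.8 CPM in WT Cre and 14.7 to 28.1 CPM in floxed MCS livers. It read 60.4, 25.2, 24.5 and 30 CPM in H3.3 KO 1 to 4, and passed the threshold against neither kind of control. At an unadjusted p under 0.05, 0 of these 4 differed by edgeR, and DESeq2 called 0. Without H3.3 KO 1, Lgals9 was called lower (-0.24, edgeR adjusted p = 0.0462). Of 15 further matrix metalloproteinases and their inhibitors, 14 were tested and 8 were higher. Mmp14 rose by 0.80 (0.00495), Mmp15 by 1.67 (1.03e-04) and the inhibitor Timp2 by 0.97 (3.14e-05), whereas Mmp19 had -0.05 (0.743). Larger rises were seen in Mmp13 and the inhibitor Timp1, both named after their values were seen. Against WT Cre they were 3.24 (edgeR adjusted p = 1.33e-04) and 3.95 (4.55e-05), and against floxed MCS 4.03 (4.72e-05) and 6.30 (9.97e-06).

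TREM2 signals through a short chain of proteins, and nearly all of its listed genes rose. Of 12, 11 were higher and 1, Apoe, was lower, with a median log2 fold change of 1.64. The adaptor gene Tyrobp read 7.37 to 13.2 CPM in controls and 21.3, 28.2, 28.5 and 34.8 CPM in H3.3 KO livers, with a log2 fold change of 1.60 (edgeR adjusted p = 1.86e-05). The kinase gene Syk read 3.21 to 5.47 CPM in controls and 7.95, 19.8, 17.6 and 23.1 CPM, by 1.85 (1.25e-04). Plcg2 rose by 2.08, Vav1 by 1.90, Btk by 1.81, the phosphatase gene Inpp5d by 1.72, Lat2 by 1.67 and the other adaptor, Hcst, by 1.26. The sheddases Adam10 and Adam17, which cleave TREM2 from the cell surface, rose by 0.42 and 0.60 and the linker Grb2 by 0.61. H3.3 KO 1 lay below the highest control for Lat2 (0.521 beside 0.564 CPM) and Adam17 (19.5 beside 24.5 CPM). Lat2 and Hcst were low, at 4 to 13 counts per control library. The edgeR adjusted p was 0.00182 for Lat2, 0.00717 for Hcst, 0.00549 for Adam10 and 0.0112 for Adam17. Apoe, a lipoprotein ligand of TREM2 that hepatocytes make in large amounts, fell by 0.50 (0.00888), from 17167 to 20823 CPM to 11733 to 15868 CPM. Of the 5 other TREM genes, 4 were higher. Treml4 read 2.56 to 7.21 CPM in controls and 7.17 to 13.4 CPM in H3.3 KO livers (log2 fold change 1.61, adjusted p = 0.00115), and Trem1, Trem3 and Treml2 had mean levels over the 10 livers of 0.2, 0.128 and 0.469 CPM.

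Genes of macrophages as such were higher as well. The 7 reference genes that macrophages of different origin share (Csf1r, Adgre1, Mertk, Fcgr1, C1qa, C1qb and C1qc) were all raised, by 0.62 for Mertk to 1.85 for Adgre1. Their summed level was 141, 169 and 163 CPM in WT Cre 1 to 3, 164, 151 and 256 CPM in floxed MCS 1 to 3 and 325, 497, 480 and 666 CPM in H3.3 KO 1 to 4. The sums did not overlap, and H3.3 KO 1 was again nearest to the controls. Of 12 markers of resident Kupffer cells, 9 were higher and 0 lower, with a median of 1.33 and a summed level of 398 to 527 CPM in controls and 617 to 1022 CPM in H3.3 KO livers. Clec4f, a lectin of Kupffer cells, rose by 1.29 (edgeR adjusted p = 0.00193) and Cd5l by 1.74 (8.54e-05). Slc40a1 (-0.13, 0.552), Nr1h3 (-0.06, 0.666) and Cd163 (1.18, 0.0785) did not pass. Other liver cells also express Slc40a1 and Nr1h3, and Cd163 was named after its value was seen. Of 13 transcription factor genes of macrophages, 5 were higher and 0 lower, with a median of 0.05.

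Markers of other cell types moved as well, and their part in the results was not tested. Of the dendritic cell markers 6 of 8 were higher (summed level 10.4 to 11.8 CPM in controls and 13.6 to 23.1 CPM in H3.3 KO), of the neutrophil markers 4 of the 6 tested (3.5 to 14.4 and 6.26 to 29.1 CPM) and of the T and NK cell markers 7 of 8 (2.58 to 3.97 and 3.84 to 19.3 CPM). In the stellate cell and fibroblast list 7 of 8 were higher (212 to 272 and 488 to 777 CPM). Of the 7 cholangiocyte markers tested, 1 was higher (19.8 to 29.8 and 34 to 38.2 CPM), and of 8 endothelial markers 1 was (167 to 212 and 187 to 330 CPM), a count that was 5 without H3.3 KO 1, 3 without floxed MCS 3 and 5 with library size only. Of 8 hepatocyte markers 7 were lower and 0 higher (103031 to 146358 CPM in controls and 72591 to 90695 CPM in H3.3 KO). Against WT Cre alone, Alb (-0.36, edgeR adjusted p = 0.067) and Apoa1 (-0.45, 0.175) did not pass, whereas Ttr (-0.98, 5.44e-04) and Cyp2e1 (-1.20, 1.23e-04) did. Against WT Cre and floxed MCS alone, 3 and 4 dendritic cell, 3 and 1 neutrophil and 7 and 5 T and NK cell markers were higher. No list had all its markers at 0, and the plot of calls by list sets the counts against all 6 controls side by side.

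**Figure D2:**
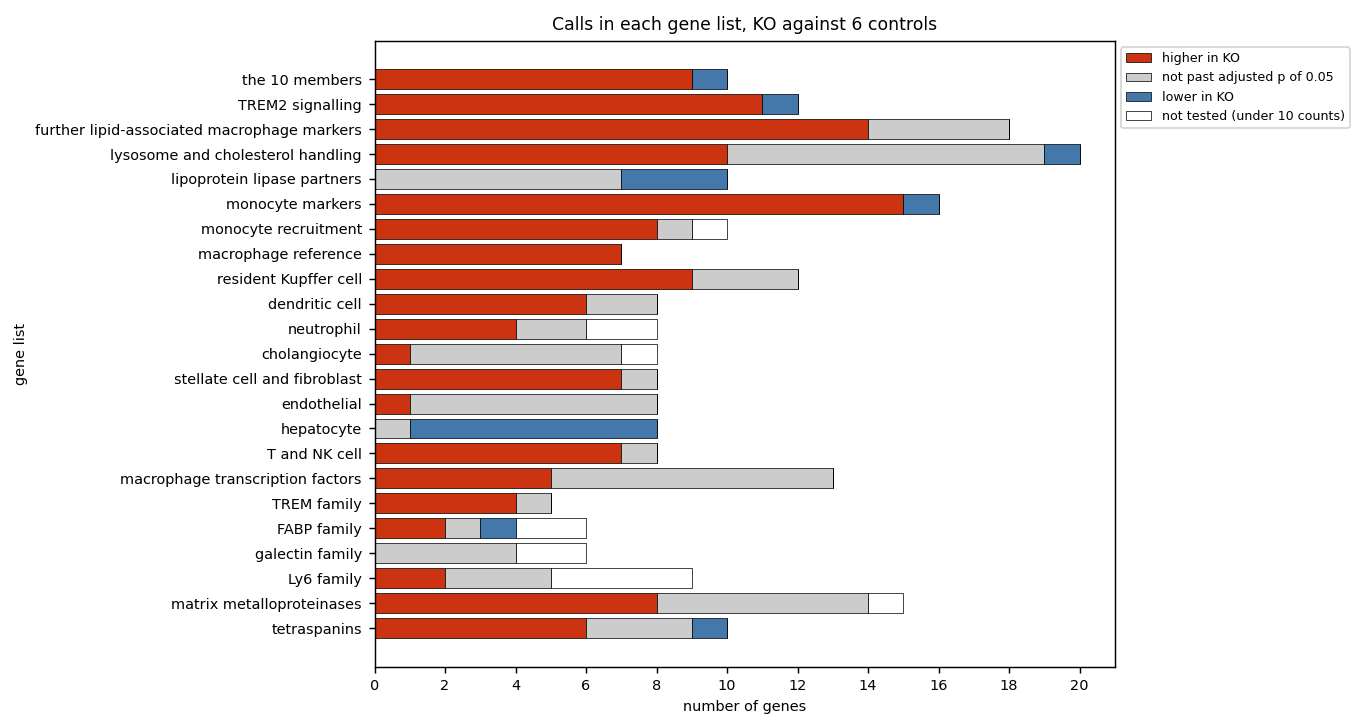
Number of genes in each list that were higher, lower or not past an adjusted p of 0.05 in 4 H3.3 KO livers against 6 controls (edgeR), with genes of under 10 summed counts left white. Of the 10 members 9 were higher, of the monocyte markers 15 of 16, of the lipoprotein lipase partners 0 of 10 and of the galectin family 0 of 4 tested.

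To ask whether the 10 genes rose by more than macrophage genes in general, the fit was repeated with the summed counts of the 7 reference genes as the library size, so that a log2 fold change of 0 means that a gene rose as much as the reference. On this scale 7 of the 10 genes were higher, 1 was lower and 2 were not called, whereas 3.00% of the 22442 genes tested were higher. The median over the 10 genes was 0.92 and that over all genes -1.48. Mmp12 stayed highest at 3.73 (adjusted p = 2.50e-06 by edgeR, SE 0.446), followed by Gpnmb at 3.00 (4.04e-06) and Itgax at 1.47 (3.08e-04). Ly6c2 was at 1.13 (0.0113), Trem2 at 1.10 (0.00667), Lgals3 at 0.74 (0.00672) and Lpl at 0.74 (0.00964). Cd63 (0.13, adjusted p = 0.672) and Cd9 (-0.24, 0.374) did not differ detectably from the reference, and Fabp5 was at -3.44 (0.00153).

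Per 100 reference counts, Mmp12 gave 0.148, 0.846 and 0.536 counts in WT Cre 1 to 3, 0.224, 0.148 and 0.109 in floxed MCS 1 to 3 and 2.92, 5.29, 4.81 and 4.95 in H3.3 KO 1 to 4. H3.3 KO 1 was the lowest of the H3.3 KO livers and lay well above the highest control. Trem2 gave 0.122 to 0.385 in controls and 0.44, 0.398, 0.544 and 0.586 in H3.3 KO livers. Lgals3 gave 2.33 to 3.64 and 4.78, 6.13, 4.87 and 4.77, and Gpnmb at most 0.231 and 0.5 to 0.953. In these 4 genes the groups did not overlap. The share of all genes without overlap on this scale is not given here, so this count has no background beside it. In Lpl (6.01 in H3.3 KO 1, within the 5 to 7.23 of the controls), Itgax (0.881, within 0.262 to 0.915) and Ly6c2 (0.16, within 0.131 to 0.39) the groups overlapped, each through H3.3 KO 1. The calls of Lpl and Ly6c2 were lost without H3.3 KO 2 (adjusted p = 0.0623 and 0.0757) and without H3.3 KO 3 (0.0714 and 0.057), which leaves 5 genes. With the 12 Kupffer cell genes as reference in place of the 7, Cd9 (0.45, adjusted p = 0.0246) and Cd63 (0.81, 9.12e-04) were higher too, 9 in all.

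**Figure D3:**
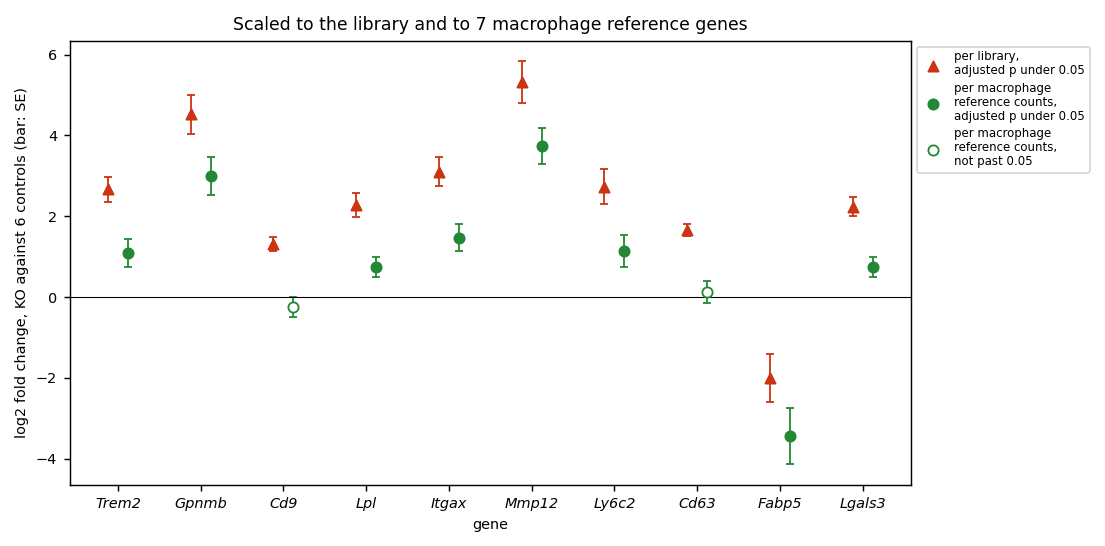
Log2 fold change of each gene in 4 H3.3 KO livers against 6 controls with its SE, scaled to the library (triangles) and to the summed counts of 7 macrophage reference genes (circles, open where the adjusted p is not under 0.05). Mmp12 moves from 5.32 to 3.73 and Gpnmb from 4.52 to 3.00, both far above 0, while Cd9 and Cd63 come to lie near 0 and Fabp5 at -3.44.

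On the same scale most other lipid-associated macrophage markers were not higher. Of the 18 further markers 4 were higher and 6 lower, with a median of -0.05. The 4 were Capg (1.23, edgeR adjusted p = 2.26e-04), Clec7a (1.20, 1.38e-04), Anxa2 (0.70, 0.0383) and Pla2g7 (0.69, 0.0206), named after their values were seen. Plin2 (-1.37, 4.73e-04), Cd36 (-1.95, 0.00909), Anxa5 (-0.92, 0.00688) and Cstb (-0.81, 0.00352) were lower. Of the 20 lysosome and cholesterol genes 0 were higher and 15 lower (edgeR, median -1.16). The median over all genes on this scale was -1.48, so a value below 0 here is not a fall particular to these genes. Of the 12 TREM2 signalling genes 0 were higher by edgeR and 4 were lower (Apoe, Adam10, Adam17 and Grb2). At an unadjusted p under 0.05, 0 were higher, and DESeq2 called 0 higher. Tyrobp had 0.12 (adjusted p = 0.655) and Syk 0.27 (0.343). Of the 16 monocyte markers 10 were higher and 1 lower, among them Ccr2 at 1.11 (0.00139), Chil3 at 1.91 (0.00259) and F13a1 at 1.43 (0.00521), whereas Lyz2 had 0.07 (0.791) and Plac8 0.01 (0.986). Of the 12 Kupffer cell markers 1 was higher and 2 lower. The higher one was Marco, a scavenger receptor named here after its value was seen, at 1.69 (1.72e-05), which read 2.21 to 7.43 CPM in controls and 10.2, 54, 51.3 and 49.4 CPM in H3.3 KO livers. Clec4f (-0.22, 0.413) did not pass the threshold. A rise beyond the reference was not confined to the macrophage and monocyte lists. Of the 8 stellate cell and fibroblast genes 3 were higher and 3 lower, with Col3a1 at 1.15 (1.75e-04) and Col1a2 at 0.95 (7.05e-04). Of the 14 metalloproteinase and inhibitor genes tested, 2 were higher, Timp1 at 3.14 (2.70e-06) and Mmp13 at 2.02 (1.79e-05), and 4 were lower.

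Each kind of control was then compared on its own, in a fit of all 3 groups. The 9 genes were higher in H3.3 KO against WT Cre and against floxed MCS, where 15.3% and 17.3% of all genes were. These comparisons share the H3.3 KO livers. Trem2 differed by 2.95 (SE 0.407) from WT Cre and by 2.42 (0.392) from floxed MCS, Cd9 by 1.31 (0.232) and 1.32 (0.232) and Lpl by 2.31 (0.395) and 2.26 (0.395). Mmp12 was 4.78 (0.575) above WT Cre and 6.28 (0.667) above floxed MCS, and Gpnmb 4.15 (0.602) and 5.07 (0.679). Without WT Cre 2, the highest control for both, the first of these became 5.39 for Mmp12 and 4.90 for Gpnmb.

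Between WT Cre and floxed MCS, which is also the test of whether the effect differs by kind of control, 0 of the 10 genes passed the threshold (edgeR), as against 0.927% of all genes, and 0 had an unadjusted p under 0.05. DESeq2 called 0 after adjustment and gave 2 an unadjusted p under 0.05. The smallest unadjusted p were 0.0701 for Fabp5 (-1.21, SE 0.582) and 0.0958 for Mmp12 (1.495, SE 0.808). With 3 livers each, a p that misses the threshold does not show that the kinds of control are alike. Control columns were matched to the kind of control by library number, and the values per kind rest on that match.

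**Figure D4:**
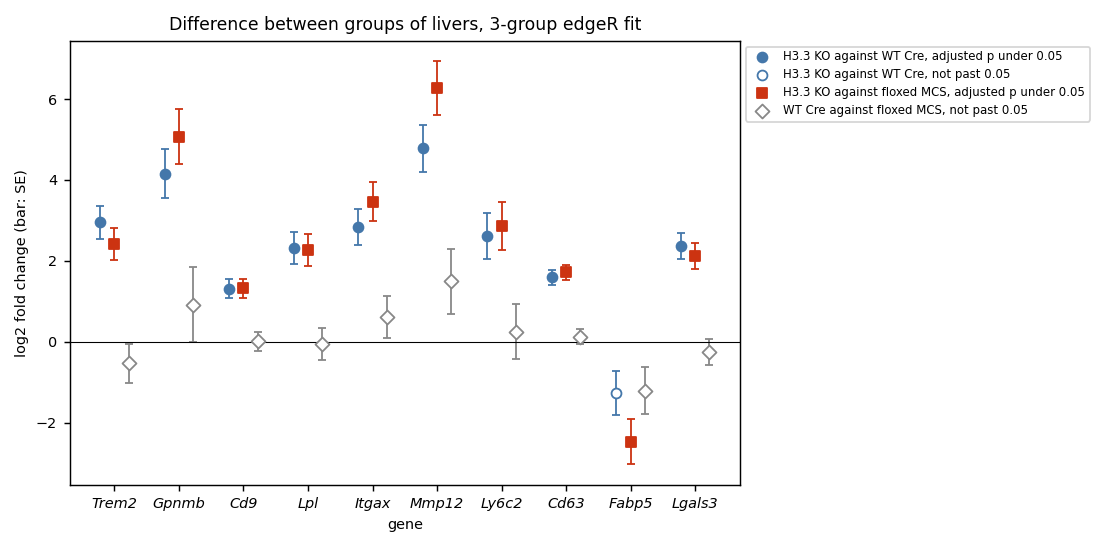
Log2 fold change with SE of each gene in H3.3 KO against 3 WT Cre controls (circles) and against 3 floxed MCS controls (squares), and of WT Cre against floxed MCS (diamonds), with open symbols where the adjusted p is not under 0.05 (edgeR, fit of 3 groups). The KO contrasts lie above 1 for 9 genes and below 0 for Fabp5, and the diamonds lie between -1.21 for Fabp5 and 1.495 for Mmp12.

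Levels were compared between the genes per kilobase of exon, from CPM divided by the GENCODE exon length. The deposited FPKM, whose gene lengths are not given in the sources used here, gave another order in places. In controls, Cd9 (11.3 ± 0.743 CPM per kilobase, SD, n = 6) and Fabp5 (7.75 ± 4.64) led, followed by Lgals3 (2.9 ± 0.911), Cd63 (1.13 ± 0.123), Lpl (0.998 ± 0.198), Itgax (0.216 ± 0.066), Ly6c2 (0.17 ± 0.0392), Trem2 (0.08 ± 0.0271), Mmp12 (0.0779 ± 0.068) and Gpnmb (0.0248 ± 0.0212). In this order Cd9 and Fabp5, Fabp5 and Lgals3, Cd63 and Lpl, Itgax and Ly6c2, Trem2 and Mmp12, and Mmp12 and Gpnmb did not differ beyond their SD. In H3.3 KO livers Cd9 (28.1 ± 9.42, n = 4) and Lgals3 (13.6 ± 4.01) led, with spreads that did not overlap. Lpl (4.84 ± 2.02), Cd63 (3.55 ± 0.712) and Mmp12 (3.17 ± 1.36) followed with overlapping spreads, Mmp12 having moved from rank 9 to rank 5. Each of the remaining neighbours overlapped too, from Fabp5 (1.96 ± 0.567) through Itgax (1.86 ± 0.911), Ly6c2 (1.13 ± 0.668) and Gpnmb (0.582 ± 0.269) to Trem2 (0.502 ± 0.215). By FPKM, Fabp5 (23.9 ± 13.5) ranked above Cd9 (16.9 ± 1.89) in controls. In H3.3 KO livers, Mmp12 (12.3 ± 6) then ranked above Cd63 (11.7 ± 2.5) and Lpl (10.8 ± 4.56), and Trem2 (1.91 ± 0.967) above Gpnmb (0.993 ± 0.345), so that the order of these neighbours depends on the length used.

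Across the 10 livers the 9 raised genes followed each other, with Pearson r between 0.763 (Gpnmb and Ly6c2) and 0.976 (Mmp12 and Cd63) on log2 CPM, and r with the log2 of the reference sum was 0.855 to 0.986. Fabp5 had r of -0.461 to -0.78 with them. These are descriptions, since the points share the group difference and the library. Among the 10 other genes most like the mean of the 10 scaled genes, with a mean of at least 1 CPM, were Slc25a36 (r = 0.993), Arhgap27, Tmsb4x (both 0.992), Basp1, Csf2ra, Atp6v0c, Dnajc10, Ppfia4 and Igf2os (each 0.991). With the group means removed, r of these genes was 0.901 to 0.943. This is no separate support, since the genes were picked by an r that includes the spread within groups. Csf2ra, the receptor of GM-CSF, rose from 5.33 to 56.3 CPM on average and by 3.41 in log2 units (adjusted p = 1.86e-05 by edgeR). The actin-binding thymosin gene Tmsb4x rose from 89.9 to 228 CPM and by 1.34 (1.11e-05). Igf2os had 0 counts in every control and a mean of 11.4 CPM in H3.3 KO, at least 85.4-fold above a floor of 3 counts per control library, and as an antisense gene its counts are uncertain.

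The targeted genes were lower in every H3.3 KO liver. H3f3a read 59.9 to 63.7 CPM in controls and 16 to 19 CPM in H3.3 KO livers (log2 fold change -1.83, edgeR adjusted p = 3.50e-08), and H3f3b 136 to 204 and 39.8 to 56.7 CPM (-1.66, 3.62e-06). H3.3 KO 1 was as low in both as the others. Hira, which the genotype label names in place of these genes, read 5.48 to 8.71 and 6.26 to 6.68 CPM (-0.14, 0.477).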

How the data were processed

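Poly(A) RNA of 10 whole livers was sequenced by the authors with a directional kit. The deposited count table holds whole read counts per gene and a deposited FPKM table holds FPKM values, both on mm10. The study's methods name STAR and HOMER, while the submitters' processing notes name STAR, HTSeq and Cufflinks, so the counter is uncertain, and the strand setting and the treatment of multi-mapped reads are not given in the sources used here. Columns of the controls were matched to the kind of control by library number.

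The 10 genes and all lists were chosen with earlier results of these data known. Counts were tested with edgeR 4.0.16 (quasi-likelihood F test, TMM, robust) in R 4.3.3 after removal of genes under 10 summed counts, with Benjamini-Hochberg adjustment over all 22449 genes and a threshold of 0.05. H3.3 KO was set against the 6 controls pooled, and in a fit of 3 groups against each kind. A further fit used summed counts of 7 macrophage reference genes as library sizes, without those genes. CPM is TMM-adjusted. Single values were tested by exact two-sided permutation over livers. Named genes were the 10 members, genes of 6 lists (TREM2 signalling, monocyte markers, monocyte recruitment, lipoprotein lipase partners, macrophage reference, TREM family), the 4 most abundant of every other list, the 10 genes of at least 1 CPM most correlated with the members, and H3f3a, H3f3b and Hira. Named additions chosen after their values were seen are marked. Alternatives were DESeq2 1.42.0, limma 3.58.1 (voom, and log2 of FPKM with a pseudocount of 1 or 0.1), other scalings, filters and references, a replicate block, and each liver left out. The fits were tested on simulated data. Total counts were 14998426 to 26096141 per library, so genes with under 20 counts in a library are imprecise. The labels number the samples of a group as replicates without naming the animals, so p-values measure the spread between these samples. Of the deposited FPKM cells 268042 were blank, none of them in the 10 genes. The FPKM fits read blanks as 0, although 6204 blank cells of tested genes had counts, so they were repeated without the 3488 tested genes that have a blank. Same-numbered livers did not deviate together (correlations -0.0387 to 0.111), so numbers were not taken as pairs. Some genes that the rule names are not reported here.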

Additional observations from a re-analysis of the deposited data

Results flagged for a closer look

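The summed level of the 7 macrophage reference genes was 256 CPM in floxed MCS 3, while the nearest control, WT Cre 2, read 169 CPM. The gap is 0.756 of the whole range of the 6 controls, which marks floxed MCS 3 as far from the others. Of 22 groups of values checked in this way it was the only one past the limit, and chance marks about 1 in 20. Without floxed MCS 3, 9 of the 10 genes were still higher in H3.3 KO and 1 was lower.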

How the results depend on the processing

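Against all controls and against each kind of control, 9 of the 10 genes were higher under every alternative run, leaving out each liver included (9 to 9), and between the kinds of control 0 were called under every alternative. Per reference count, 7 were higher, and 5 to 7 with a liver left out, 6 with limma voom and 9 with the Kupffer cell list. The number of genes whose groups do not overlap, an alternative chosen after seeing the data, was 8, and 8 to 9 with a liver left out. The share over all genes was 12.5% with all livers and is not given here with a liver left out. With the replicate number as a block, 9 genes were higher and Fabp5 was not called (-2.08, edgeR adjusted p = 0.124; against floxed MCS -2.65, 0.0513), but the numbers do not pair the livers. Fabp5 was also not called with limma voom (-1.69, adjusted p = 0.0559), without the filter (-1.97, 0.0543) and on log2(FPKM + 1) (-1.46, 0.0544) and log2(FPKM + 0.1) (-1.57, 0.0573). With the genes that have a blank FPKM cell left out, an alternative chosen after seeing the data, it was called on both (adjusted p = 0.0332 and 0.0432). Against WT Cre it was called by DESeq2 (-1.24, 0.0331). The cause was not tested. Differences between the kinds of control that turned sign were all uncalled: Trem2 0.056 and 0.183 with the FPKM pseudocounts of 1 and 0.1 (with or without blank genes), Lpl 0.061 and 0.090 with the same and 0.094 with library size only, Cd9 -0.001 with the block, and with a liver left out Cd9 (-0.034 to 0.078, below 0 without WT Cre 3, floxed MCS 1 or floxed MCS 3), Lpl (-0.216 to 0.158, above 0 without WT Cre 1, WT Cre 3 or floxed MCS 3) and Lgals3 (-0.452 to 0.064, above 0 without floxed MCS 3). Cd9 per reference turned to 0.45 with the Kupffer cell list, and Ly6c2 per reference was not called with limma voom (0.96, adjusted p = 0.0584). On log2(FPKM + 1) low genes were understated, as for Gpnmb at 0.81. Depth limits Trem2, Gpnmb and Ly6c2 in controls, where counts were 0 to 16, and Mmp12, where they were 5 to 33.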
